A study of Homo sapiens with 4 samples.

Results

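NF1, TSC2, MDM2 and MDM4 are 4 genes of growth control that are recurrently altered in glioma, and their splice forms were read from RNA-seq of U87MG cells, a human glioblastoma line. All splicing events annotated to these gene symbols were taken, 100 of the 121269 events in the 5 deposited tables, with 45 in MDM2, 25 in TSC2, 19 in NF1 and 11 in MDM4. Of these, 69 were skipped exon events at 43 exon regions, each set by its start and end, and 29 were pairs of mutually exclusive exons. Each gene had overlapping regions, so the counts of exons below can hold 1 exon more than once. TSC2 also had 1 alternative 3′ splice site and NF1 had 1 retained intron. Cells of both groups were lipofected with 2.5 µM of an oligonucleotide. RBFOXi, 2 libraries, carries repeats of the motif that the splicing factors RBFOX1 and RBFOX2 bind, and SCRM, 2 libraries, is the scrambled control. By its label, the oligonucleotide of RBFOXi replicate 1 carried the dye Cy5, while the other 3 labels mention none. The 2 replicates per condition are described as biologically independent, all from 1 cell line, with no untransfected sample, so the SCRM libraries stand for the basal state.

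The neurofibromin encoded by NF1 and the tuberin encoded by TSC2 are GTPase-activating proteins. Neurofibromin switches off RAS, and tuberin, in a complex with TSC1, switches off RHEB and thereby restrains mTORC1. MDM2 is a ubiquitin ligase, and MDM4 (MDMX) is its relative and forms a complex with it. In 3 of the genes, exons are known whose use varies between tissues: exon 23a inside the GAP-related domain of NF1, exons 25 and 31 of TSC2, and exon 6 of MDM4, whose loss shifts the reading frame and gives the short form MDM4-S.

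Inclusion was expressed as the proportion spliced in (PSI), computed from the inclusion and skipping counts divided by the effective length of each form, from 0 (always skipped) to 1 (always included). Delta PSI was the mean of the RBFOXi libraries minus the mean of the SCRM libraries. Of the 4 expected line markers with counted skipped exon events (VIM, CD44, NES and FN1 of 7 listed), all had over 100 counts at an event in every library, while GFAP, S100B and SOX2 had no skipped exon event to check, and 1 of 6 markers of other cell types had any event (SYP, with at most 34 counts). RNA from bulk cells was measured, so a form made by fewer cells and a form made at a lower level per cell cannot be told apart.

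SCRM replicate 1 stood apart from the other libraries at all 4 genes. Over skipped exon events it had 344 counts in NF1, against 4197 in SCRM replicate 2, 2319 in RBFOXi replicate 1 and 2965 in RBFOXi replicate 2. In MDM2 it had 835 counts, against 10931 in SCRM replicate 2, 5574 in RBFOXi replicate 1 and 9609 in RBFOXi replicate 2. The deficit depended on position in TSC2. At the first of 13 exon regions with SCRM PSI above 0.95, SCRM replicate 1 had 15.3% of the counts of SCRM replicate 2. At the last it had 147%, whereas RBFOXi replicate 1 stayed between 65.5% and 91.5% of RBFOXi replicate 2. The same slope was seen across the transcriptome. Over 4658 genes with at least 5 exons, the median count at the 5′-most exon relative to the 3′-most, on the log2 scale and relative to SCRM replicate 2, was -1.23 in SCRM replicate 1, -0.26 in RBFOXi replicate 1 and -0.26 in RBFOXi replicate 2. Its part in the differences below was not tested, and a delta PSI without it is given beside many of the values that it moved.

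**Figure D1:**
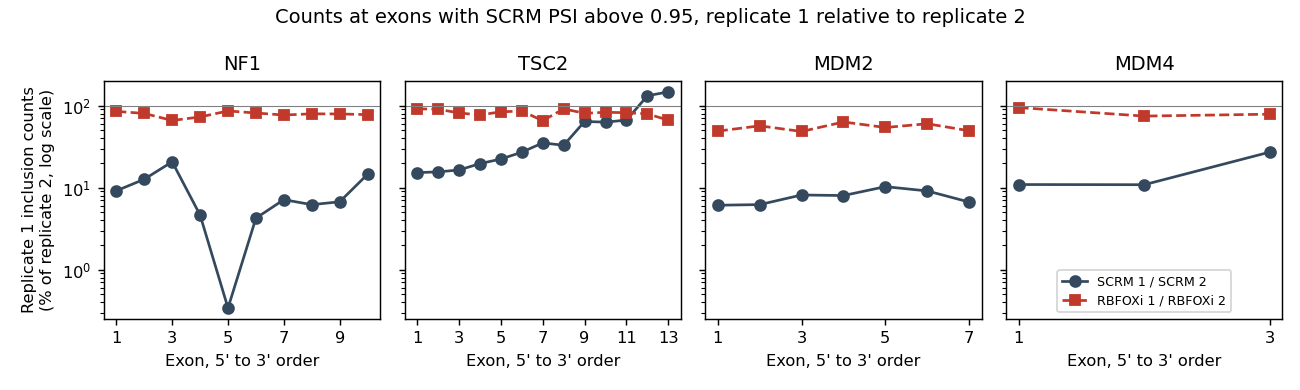
Inclusion counts of replicate 1 as a percentage of replicate 2 (y axis, log scale) at the exons of each gene with SCRM PSI above 0.95, in 5′ to 3′ order (x axis). The SCRM ratio (dark circles) climbs along TSC2 from 15.3% to 147% and is at most 27.2% at every NF1, MDM2 and MDM4 exon, while the RBFOXi ratio (red squares) has no such slope.

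The alternative sequences on which the results turn are printed 5′ to 3′ from the GRCh37 genome (hg19), and all lie on the plus strand. They are shown because each is an exon or site whose inclusion was intermediate or low in U87MG, or is the classical regulated exon of its gene. The first, chr16:2127599-2127827, is TSC2 exon 25, which ends at position 2127727, followed by the start of the next intron, with each TGCATG in capitals. In the second, chr16:2129003-2129055, the capitals mark the 3 bases that are exonic or intronic depending on which of the adjacent TSC2 acceptors is used.
TSC2 exon 25 and intron: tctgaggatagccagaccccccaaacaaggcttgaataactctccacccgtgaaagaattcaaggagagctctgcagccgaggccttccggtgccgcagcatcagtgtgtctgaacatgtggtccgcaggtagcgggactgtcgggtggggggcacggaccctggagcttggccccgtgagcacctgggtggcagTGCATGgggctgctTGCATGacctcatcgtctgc
TSC2 tandem acceptor: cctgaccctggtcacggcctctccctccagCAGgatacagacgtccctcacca
TSC2 exon 31, 69 nt, chr16:2132437-2132505: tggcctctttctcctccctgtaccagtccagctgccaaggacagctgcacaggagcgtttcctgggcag
NF1 exon 23a, 63 nt, chr17:29579956-29580018: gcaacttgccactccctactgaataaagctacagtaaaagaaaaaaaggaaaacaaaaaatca
NF1 exon 48a, 54 nt, chr17:29694243-29694296: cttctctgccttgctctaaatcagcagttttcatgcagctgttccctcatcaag

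For MDM4 exon 6, chr1:204506529-204506625, the longest counted form (97 nt) is shown, with the bases in capitals that the 68 nt form has and the 39 nt form lacks. For MDM2, chr12:69208383-69208436 is the coding part, 54 nt, of an 87 nt exon that ends at position 69208469 and carries a stop codon.
MDM4 exon 6: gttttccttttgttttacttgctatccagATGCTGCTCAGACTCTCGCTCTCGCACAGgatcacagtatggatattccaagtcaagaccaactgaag
MDM2 87 nt exon, coding part: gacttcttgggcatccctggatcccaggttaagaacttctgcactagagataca

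In the basal state most exons of the 4 genes were included almost without exception. Of the 43 exon regions, 33 had a mean SCRM PSI above 0.95, 7 lay between 0.05 and 0.95, and 3 lay under 0.05. The 7 were TSC2 exon 25, the MDM2 134 nt exon, the MDM4 150 nt exon, the NF1 63 nt exon and the 3 forms of MDM4 exon 6. The 3 exons that were nearly always skipped were the NF1 54 nt, TSC2 69 nt and MDM2 87 nt exons. SCRM replicate 1 decided part of this split, and without it 6 exons lay between these bounds. The MDM2 134 nt and MDM4 150 nt exons then lay above 0.95, and the NF1 159 nt exon lay at 0.9315.

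NF1 was expressed mainly in the form with exon 23a. This 63 nt exon (a multiple of 3, coding, exon 31 of transcript NF1-202 in GENCODE 44) had 135 inclusion and 7 skipping counts in SCRM replicate 2, a PSI of 0.937 with a 95% counting interval (Clopper-Pearson, here and below) of 0.875 to 0.974. SCRM replicate 1 had 0 counts there, so the basal value rests on 1 library. The form with the exon is the one described as the weaker RAS inactivator. The 54 nt exon 48a (coding, in 3 transcripts), a multiple of 3 that is known from muscle forms of neurofibromin, had 0 of 38 counts in SCRM replicate 1 and 2 of 190 in SCRM replicate 2. These counts gave PSI values of 0 and 0.00964, and at 3 counts, the limit that a count of 0 allows, the PSI would be 0.0727. The other 10 NF1 exons had a mean SCRM PSI above 0.95. One of them, of 115 nt, also occurred as a 138 nt exon that starts 23 nt earlier and is listed in 1 transcript only, of the class degraded by nonsense-mediated decay. Reads inside the shared part were counted for both, so the PSI of 1.00 of the longer exon does not measure its own use. The 159 nt exon passed 0.95 only through SCRM replicate 1, which had 1 count there. In SCRM replicate 2 it had 293 of 299 counts, a PSI of 0.9315. The 1 retained intron event of NF1 was an intron of 369 nt at chr17:29556484-29556852. Its retained form had 0 of 171 counts in SCRM replicate 2 and 0 of 4 in SCRM replicate 1. It had 0 of 63 in RBFOXi replicate 1 and 4 of 102 in RBFOXi replicate 2, and the event was not tested. NF1 has partial copies elsewhere in the genome, and the authors kept uniquely aligned reads, so reads that match a copy equally well were not counted.

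TSC2 was expressed mainly without its alternative exons. Exon 25 (in length a multiple of 3, coding, exon 26 of TSC2-201 because GENCODE counts the noncoding first exon) had 74 inclusion and 199 skipping counts in SCRM replicate 1 and 132 and 337 in SCRM replicate 2. The PSI was 0.137 (0.107 to 0.173) in SCRM replicate 1 and 0.144 (0.120 to 0.171) in SCRM replicate 2, which agreed within their counting intervals although the library depths along the gene differed. The 69 nt exon 31 (a multiple of 3, coding, exon 32 of TSC2-201) was rarer still. It had 8 of 235 counts in SCRM replicate 1 and 2 of 275 in SCRM replicate 2, with PSI of 0.0239 and 0.00506. In both SCRM libraries most counts of each of these events thus came from the junction that skips the exon.

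The exon after exon 25 has 2 acceptors 3 nt apart, so that transcripts gain or lose 1 codon. Both were used to nearly the same extent. The upstream acceptor took a PSI of 0.562 in SCRM replicate 1 (199 against 155 counts) and 0.545 in SCRM replicate 2 (337 against 281 counts), 0.554 ± 0.0119 (SD, n = 2). The counts for this upstream acceptor equal the skipping counts of exon 25 in every library, which shows that skipping to the downstream acceptor was left out of the exon 25 event. With skipping through both acceptors counted, an alternative added after seeing the data, the exon's share fell to 8.21% in SCRM replicate 1 and 8.37% in SCRM replicate 2. Exon 25 reads that join the downstream acceptor are also not counted, which lowers these shares.

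**Figure D2:**
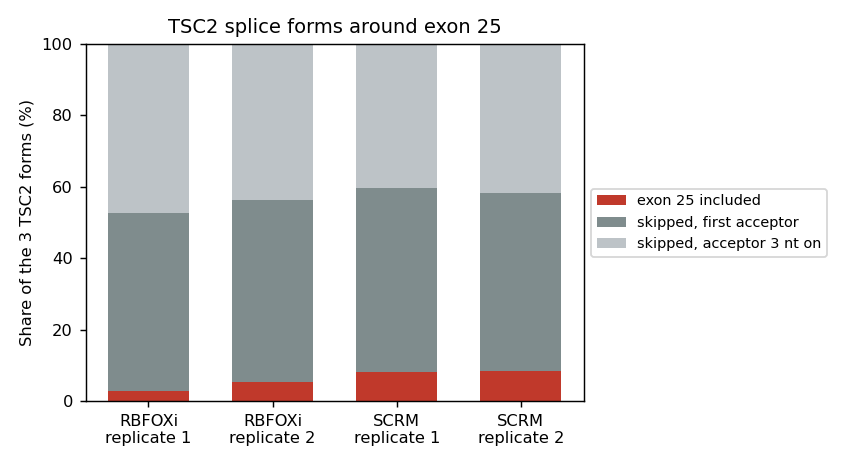
Share in percent (y axis) of the 3 TSC2 forms around exon 25 in each library (x axis), from counts divided by effective length. Inclusion (red) takes 2.86% and 5.34% in the RBFOXi libraries and 8.21% and 8.37% in the SCRM libraries, and the 2 skipped forms (greys) divide the rest nearly evenly.

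MDM2 was expressed with its coding exons included. Of its 9 skipped exon regions 7 had SCRM PSI above 0.95. The 134 nt exon 4 (not a multiple of 3, coding) had 41 inclusion and 2 skipping counts in SCRM replicate 1 and 631 and 5 in SCRM replicate 2. Its PSI was 0.780 (0.479 to 0.968) in SCRM replicate 1 and 0.956 (0.903 to 0.985) in SCRM replicate 2, and the lower value rests on 2 reads. Over the 3 events that measure this exon against other neighbours, the SCRM mean ran from 0.868 to 0.996. An 87 nt exon between exons 3 and 4, present in 1 GENCODE transcript that is of the decay class, had 0 of 17 counts in SCRM replicate 1 and 3 of 206 in SCRM replicate 2. The PSI was 0 (a limit of 0.0931 at 3 counts) and 0.00703 (0.00145 to 0.0206). The exon is a multiple of 3 but contains a stop codon, so the transcript that holds it ends early.

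MDM4 was expressed with and without exon 6. The exon in its 68 nt form (not a multiple of 3, coding, in MDM4-203) had 13 inclusion and 2 skipping counts in SCRM replicate 1 and 35 and 8 in SCRM replicate 2. The PSI was 0.789 (0.459 to 0.972) and 0.716 (0.535 to 0.863), or 0.753 ± 0.0518 (SD, n = 2). The junction that defines MDM4-S was thus present in both libraries, on at most 43 counts a library for the event. The same exon was also counted in a 97 nt form that GENCODE does not list and a 39 nt form listed in 2 transcripts. These had the same inclusion counts as each other in every library, with 12 in SCRM replicate 1 and 26 in SCRM replicate 2, and their PSI values differ through the effective length alone, with means of 0.613 ± 0.102 and 0.867 ± 0.0489. The 68 nt form had 1 count more than these in SCRM replicate 1 and 9 more in SCRM replicate 2, which are the reads specific to it. The 150 nt exon further on (a multiple of 3, coding) had PSI of 0.899 and 0.951, and the 3 other MDM4 exons were above 0.95.

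**Figure D3:**
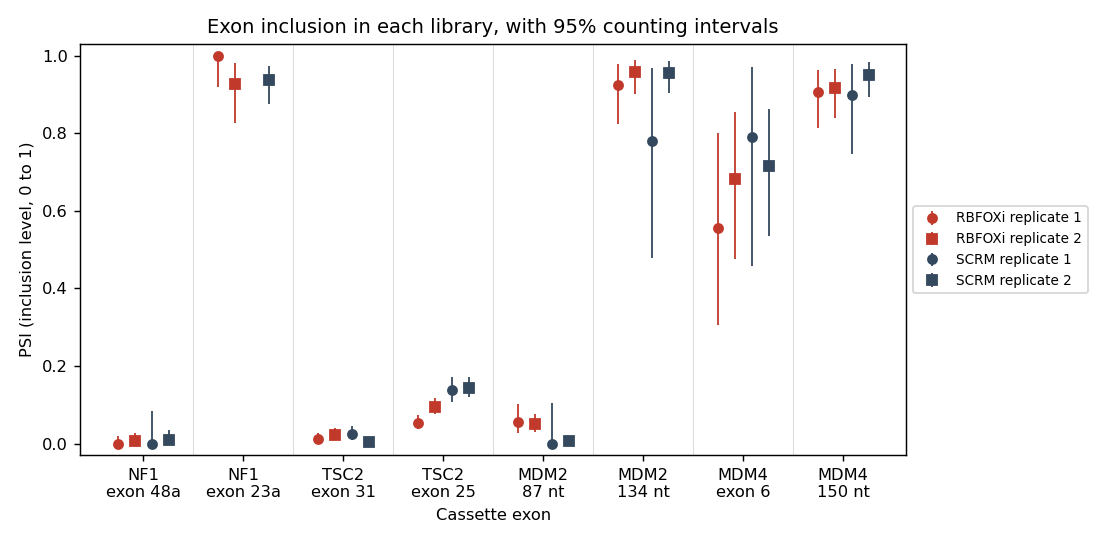
PSI (y axis) of 8 cassette exons (x axis) in each library, with 95% counting intervals as bars, RBFOXi in red and SCRM in dark blue. NF1 exon 23a (63 nt) has no SCRM replicate 1 point because it has 0 counts, TSC2 exon 25 lies lower in both RBFOXi libraries than in both SCRM libraries, and MDM4 exon 6 (68 nt) has intervals that overlap throughout.

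RBFOXi was then set against SCRM, the question being whether exons of these genes respond to a decoy for RBFOX1 and RBFOX2. No event of the 4 genes was called. An event was tested when each library had 5 counts or more, their mean was 20 or more, and each form had 4 or more in all. It was called when limma, fitted on the log2 odds of inclusion, gave a Benjamini-Hochberg adjusted p under 0.05 and delta PSI was 0.1 or more in either direction. Of the 69 skipped exon events 24 were tested, and the other 45 had too few counts or too little of 1 form. Of these 24, 0 were called, against a background of 0.0682% of the 39615 events tested. Unadjusted p under 0.05 by limma was found for 2 of the 24, against 3.61% of all tested events. A quasi-binomial F test also called 0. Fisher's exact test on the pooled counts of each group, blind to the spread between replicates, gave adjusted p under 0.05 for the same 2 events, but their delta PSI stayed under 0.1. The libraries of the groups did not overlap at 11 of 24 events, against 30.8% of all tested events. RBFOXi was lower at 7 (16.5% of all) and higher at 4 (14.3% of all). Of the 7 lower events, 3 were the 97, 68 and 39 nt forms of the same MDM4 exon. These forms share their skipping counts and most of their inclusion reads. They are not independent, and counting each of them raises the share of events without overlap. Delta PSI had a median of -0.0035 over the 24, and 19 changed by under 0.05.

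One of the 2 events was TSC2 exon 25. The inclusion and skipping counts were 40 and 299 in RBFOXi replicate 1, 89 and 363 in RBFOXi replicate 2, 74 and 199 in SCRM replicate 1 and 132 and 337 in SCRM replicate 2. The PSI was 0.0541 and 0.0949 in the RBFOXi libraries against 0.137 and 0.144 in the SCRM libraries. Both RBFOXi values lay under both SCRM values, and the gap between the RBFOXi libraries was wider than that between the SCRM libraries. Delta PSI was -0.0659 and the log2 odds of inclusion differed by -1.07 (SE 0.40, 95% interval -1.93 to -0.21), with adjusted p = 0.9999 by limma. Without SCRM replicate 1 delta PSI was -0.069. Without RBFOXi replicate 1, the Cy5 library, delta PSI was -0.0455 and the log2 odds difference -0.64. With skipping through both acceptors counted, the exon's share was 2.86% and 5.34% in the RBFOXi libraries and 8.21% and 8.37% in the SCRM libraries.

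The other was the MDM2 87 nt exon, which was chosen here after its values were seen. Its inclusion and skipping counts were 10 and 82 in RBFOXi replicate 1, 20 and 183 in RBFOXi replicate 2, 0 and 17 in SCRM replicate 1 and 3 and 203 in SCRM replicate 2. The PSI was 0.0552 (0.0263 to 0.102) and 0.0497 (0.0303 to 0.0768) in the RBFOXi libraries against 0 (up to 0.0931 at 3 counts) and 0.00703 in the SCRM libraries. Delta PSI was 0.0489 and the log2 odds difference 2.43 (SE 0.74, 95% interval 0.84 to 4.01), with adjusted p = 0.9999 by limma. With a pseudocount of 1 in place of 0.5 the difference was 1.90 and with 0.1 it was 3.62, as the SCRM libraries held 3 inclusion counts in all. Without SCRM replicate 1, delta PSI was 0.0454. Both RBFOXi libraries held the exon with the stop codon above both SCRM libraries, by less than the 0.1 that a call requires.

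MDM4 exon 6 had the largest delta PSI of the tested skipped exons of the 4 genes. For the 68 nt form, the inclusion and skipping counts were 13 and 6 in RBFOXi replicate 1, 26 and 7 in RBFOXi replicate 2, 13 and 2 in SCRM replicate 1 and 35 and 8 in SCRM replicate 2. The PSI was 0.555 and 0.682 in the RBFOXi libraries against 0.789 and 0.716 in the SCRM libraries. The groups did not overlap, but each counting interval held the values of the other libraries. Delta PSI was -0.134 and the log2 odds difference -0.81 (95% interval -2.75 to 1.13, limma adjusted p = 0.9999), so changes from a strong loss to a moderate gain of inclusion are within the error. The 97 nt form had PSI of 0.421 and 0.521 in the RBFOXi libraries and 0.685 and 0.541 in the SCRM libraries, a delta PSI of -0.142, and the 39 nt form had 0.754 and 0.821 against 0.902 and 0.833. Both share their reads with the 68 nt form and are no independent measurement of it. Without SCRM replicate 1 the delta PSI of the 97 nt form was -0.0703, that of the 68 nt form -0.0976 and that of the 39 nt form -0.0451. Without RBFOXi replicate 1, the Cy5 library, that of the 68 nt form was -0.0711.

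The remaining known exons had small differences in PSI, but these data do not settle whether their inclusion changed. NF1 exon 23a had 57 inclusion and 0 skipping counts in RBFOXi replicate 1 and 67 and 4 in RBFOXi replicate 2, with PSI of 1.00 (a limit of 0.933 at 3 counts) and 0.928, beside 0.937 in SCRM replicate 2. The exon was not tested, since SCRM replicate 1 had 0 counts. TSC2 exon 31 had PSI of 0.0112 and 0.0214 in the RBFOXi libraries and 0.0239 and 0.00506 in the SCRM libraries. The groups overlapped, and the log2 odds difference was 0.41 (95% interval -1.55 to 2.37). The TSC2 tandem acceptor was measured with 354 to 675 counts a library. Its upstream acceptor had PSI of 0.515 and 0.538 in the RBFOXi libraries and 0.562 and 0.545 in the SCRM libraries. Delta PSI was -0.0275 and the log2 odds difference -0.16 (95% interval -0.62 to 0.30, limma adjusted p = 0.9994). It was the 1 alternative 3′ splice site event of the 4 genes, against a background of 0% called of 3009, and 30.9% of these had groups that did not overlap.

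Among the MDM2 exons, exon 4 had PSI of 0.924 and 0.959 in the RBFOXi libraries and 0.780 and 0.956 in the SCRM libraries. The groups overlapped, and the delta PSI of 0.0735 became -0.0148 without SCRM replicate 1. The MDM4 150 nt exon had 0.906 and 0.916 after RBFOXi and 0.899 and 0.951 after SCRM, a delta PSI of -0.0143 that turned to 0.0118 without SCRM replicate 2. The NF1 54 nt exon had 0 of 178 and 2 of 230 inclusion counts after RBFOXi, with PSI of 0 and 0.00796 beside the 0 and 0.00964 of SCRM. Among the 15 tested events with SCRM PSI above 0.95 the largest absolute delta PSI was 0.0417, at the NF1 203 nt exon, where the RBFOXi libraries had 4 and 3 skipping counts and the SCRM libraries 0 and 0. In 5 of the 24 events the delta PSI and the log2 odds difference had opposite signs, all with an absolute delta PSI of at most 0.0245, since the pseudocount weighs more in the library with fewer reads.

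**Figure D4:**
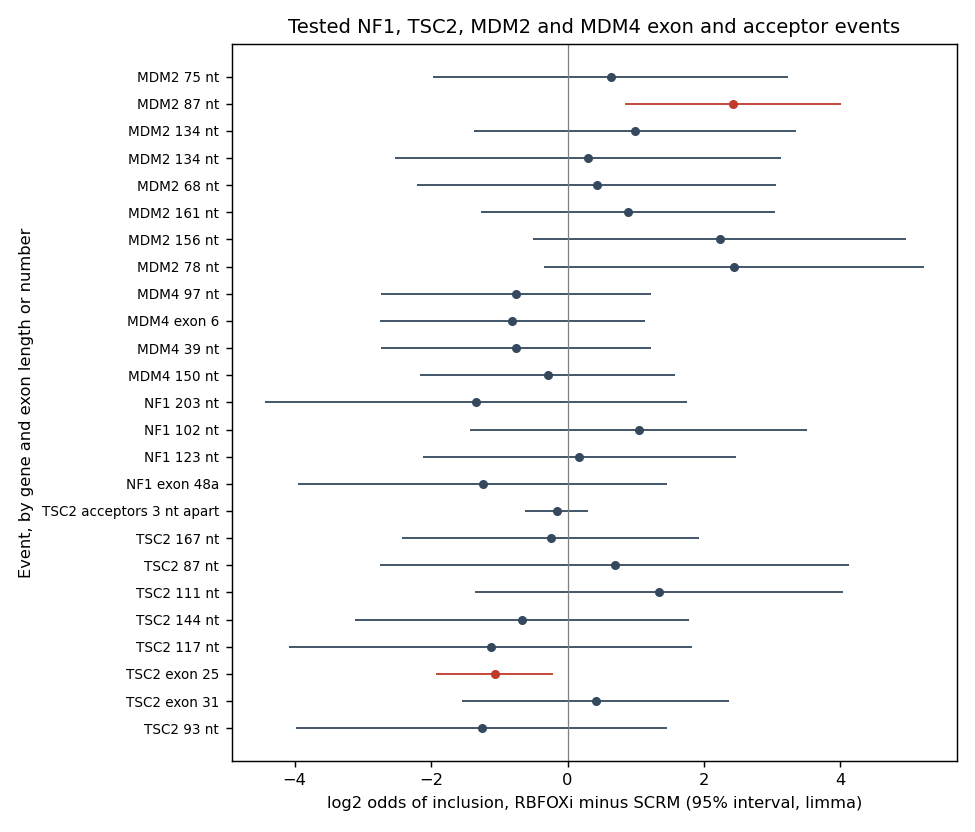
Difference in the log2 odds of inclusion, RBFOXi minus SCRM (x axis, 0 at the grey line), for the 24 tested skipped exon events and the TSC2 acceptor event (y axis), with 95% intervals from limma. The intervals of the MDM2 87 nt exon and TSC2 exon 25 (red, unadjusted p under 0.05) exclude 0 and the other 23 do not.

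RBFOX1 and RBFOX2 bind an RNA motif that reads TGCATG in the DNA, and copies downstream of an exon are known to favour its inclusion. Only the strand that reads as the RNA was searched, since the proteins bind RNA, and overlapping copies were counted. Of the 23 tested skipped exon regions of the 4 genes, 1 had the motif within 300 nt downstream, against 8.36% of 30634 tested exon regions, and 0 had it within 300 nt upstream, against 8.16%. The 1 exon was TSC2 exon 25, whose copies begin at intron positions 67 and 81 in the sequence printed above, and 2 more lie at positions 988 and 1218 of that intron of 1305 nt. A pair of copies within 100 nt was found after 39 of the 30634 exon regions (0.127%). The other 22 tested exons had the motif only further away or not at all. Of the untested exons, the MDM4 161 nt exon had a copy at position 130 downstream, and the exon after TSC2 exon 25 had one 88 nt upstream of its first acceptor, which is the copy at position 1218. Downstream of TSC2 exon 31 the first copy began at position 499, of NF1 exon 23a at 4024 and of MDM2 exon 4 at 672. MDM4 exon 6 had none in its downstream intron and the nearest upstream copy 3503 nt away, and neither intron beside the MDM2 87 nt exon held one. The paper writes the first base of the motif as optional. The shorter core GCATG began at position 83 downstream of the MDM2 87 nt exon and 67 of the NF1 54 nt exon. In TSC2 it began at position 38 after the 117 nt exon, 120 after the 93 nt exon and 132 after exon 31. Apart from TSC2 exon 25, the other tested exons had no core within 300 nt downstream. The share of all tested exons with the core was not counted. A match of letters is not a bound site, and its part in these values was not tested.

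The 29 events of mutually exclusive exons compare reads of 2 neighbouring exons in transcripts that hold 1 or the other. In 27 of the 29, both exons were also counted as skipped exons, and in all 27 both then had a SCRM PSI above 0.85 and in 23 above 0.9. The exons of these pairs were thus mostly included together, and the pair PSI divides reads between exons of 1 transcript. Of the 29, 26 were tested and 0 were called by limma, as in the whole table (0% of 26176). None had unadjusted p under 0.05 by limma, against 1.51% of all, and the quasi-binomial and Fisher tests called 0 as well. The groups did not overlap at 9 of the 26, against 24.4% of all tested events. Of the 9, 3 were events of the same MDM2 pair, of 75 nt and 134 nt exons. SCRM replicate 1 was the lowest or the highest of the 4 libraries at 21 of the 26. Several of the 26 repeat the same pair, and the share over all tested pairs was not counted.

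In NF1, the pair of 138 nt and 102 nt exons had PSI of 0.115 and 0.151 in the RBFOXi libraries and 0.225 and 0.187 in the SCRM libraries. This was the largest non-overlapping difference of the gene, a delta PSI of -0.073 (limma adjusted p = 1.00). The pair with the 115 nt form had 0.584 and 0.588 against 0.600 and 0.637, and the pair of 158 nt and 123 nt exons 0.566 and 0.578 against 0.441 and 0.557. For the 138 nt and 102 nt pair the RBFOXi mean was 0.133, against 0.187 in SCRM replicate 2 alone. Without SCRM replicate 1 the delta PSI of the 158 nt and 123 nt pair went from 0.0725 to 0.0144. That of the 115 nt and 102 nt pair went from -0.0329 to -0.0516. In the order first given, SCRM replicate 1 had 15, 29 and 56 counts at these pairs. The sign of delta PSI differed between them, and no direction of response was read from it.

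In MDM2, the 134 nt and 50 nt pair had PSI of 0.443 and 0.465 in the RBFOXi libraries and 0.362 and 0.417 in the SCRM libraries, the largest non-overlapping delta PSI of the gene among its pairs and exons taken by their best covered event, 0.0643 (limma adjusted p = 1.00). Without SCRM replicate 1, which had 41 counts there, it was 0.0369. The 75 nt and 134 nt pair had 0.577 and 0.597 against 0.533 and 0.553. Over its 3 events, none with overlapping groups, delta PSI ran from 0.0444 to 0.0801. SCRM replicate 1 had only 24 counts at the less covered of these events. The 75 nt and 156 nt pair had 0.562 and 0.643 against 0.435 and 0.597. Its delta PSI of 0.0865 became 0.00548 without SCRM replicate 1. It became 0.167 without SCRM replicate 2 and was then called (limma adjusted p = 0.045), a setting with only SCRM replicate 1 as control, in which 1400 events of the whole table were called. The 50 nt and 161 nt pair had 0.501 and 0.493 against 0.395 and 0.499, the 97 nt and 161 nt pair 0.609 and 0.663 against 0.697 and 0.565, and the 161 nt and 156 nt pair 0.495 and 0.474 against 0.446 and 0.508. The 156 nt and 78 nt pair had 0.498 and 0.445 against 0.555 and 0.465. In each of these last 4 pairs the groups overlapped, with SCRM replicate 1 at an end of the range. Over the 2 events of the 50 nt and 161 nt pair, delta PSI ran from -0.0561 to 0.0494. The SCRM mean PSI of that pair ran from 0.0838 to 0.447. Over the 4 events of the 161 nt and 156 nt pair, the SCRM mean ran from 0.2625 to 0.477 and delta PSI from 0.0074 to 0.0088.

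TSC2 pairs were steadier. The 165 nt and 153 nt pair had PSI of 0.579 and 0.582 in the RBFOXi libraries and 0.583 and 0.590 in the SCRM libraries, and the 162 nt and 153 nt pair 0.569 and 0.563 against 0.555 and 0.572. The 167 nt and 87 nt pair had 0.577 and 0.566 against 0.539 and 0.561, the 87 nt and 111 nt pair 0.747 and 0.705 against 0.723 and 0.746, and the 127 nt and 144 nt pair 0.203 and 0.210 against 0.196 and 0.217. The 144 nt and 138 nt pair had 0.456 and 0.466 against 0.381 and 0.457. Without SCRM replicate 1 the delta PSI of the 144 nt and 138 nt pair went from 0.0422 to 0.00415 and that of the 167 nt and 87 nt pair from 0.021 to 0.00999. All 7 tested TSC2 pair events had an absolute delta PSI under 0.05. The 87 nt and 111 nt pair had 2 events, with SCRM mean PSI of 0.734 and 0.0486 and delta PSI of -0.0085 and -0.00169. In MDM4, the 75 nt and 134 nt pair had 0.806 and 0.688 against 0.774 and 0.726 and the 161 nt and 150 nt pair 0.492 and 0.452 against 0.478 and 0.466, with delta PSI of -0.0028 and 0.0002.

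**Figure D5:**
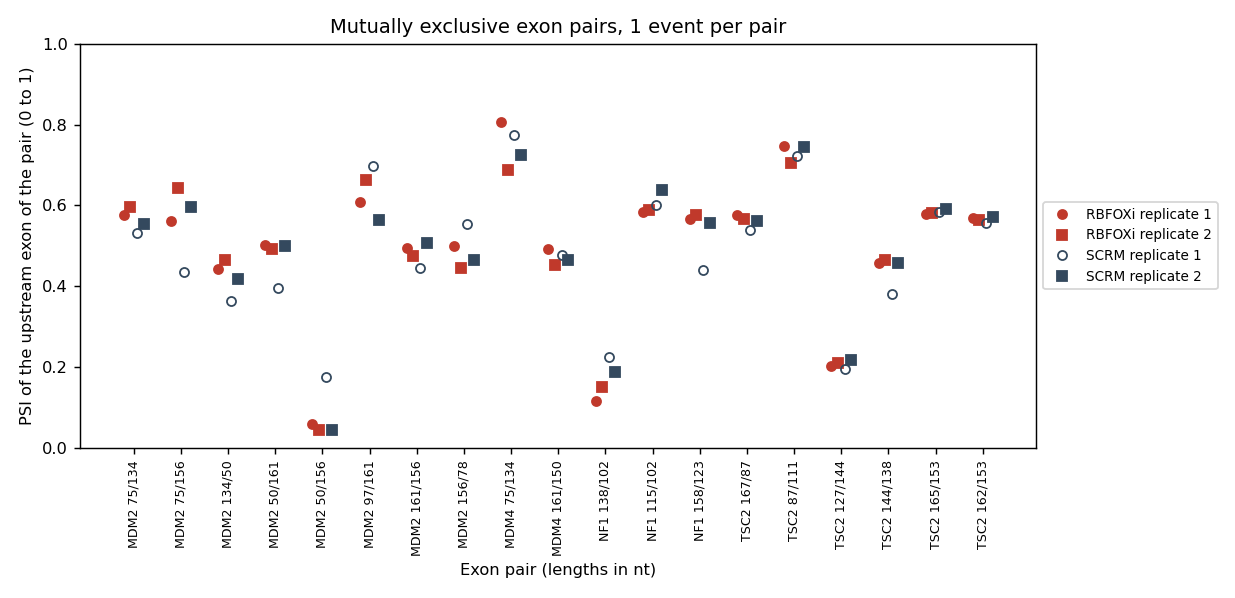
PSI of the upstream exon (y axis) for the 19 tested pairs of mutually exclusive exons, 1 event per pair (x axis, exon lengths in nt), with RBFOXi in red, SCRM replicate 2 as dark squares and SCRM replicate 1 as open circles. The open circles lie furthest out in several MDM2 and NF1 pairs, such as MDM2 75/156 at 0.435, while the TSC2 165/153 pair spans only 0.579 to 0.590.

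Other genes of these pathways were counted by lists. Of 18 genes around RAS (its activators, inhibitors and kinases), 16 had tested events, 127 in all, and 0 were called by limma. Unadjusted p under 0.05 was found for 2 of the 127, 1 of 67 skipped exon events (3.61% over all genes) and 1 of 54 mutually exclusive pairs (1.51% over all genes). The quasi-binomial test called 0. Fisher's exact test called 2, the SOS1 events given below, against 0.8% of all skipped exon events and 0.76% of all mutually exclusive pairs. These are also the 2 events with unadjusted p under 0.05 by limma. Both include the same 45 nt exon, so they are not independent. With the replicate block limma called 1, against 0.3% and 0.294%. Of 16 genes around TSC and mTOR, 14 had 118 tested events with 0 called by limma with or without the block, 0 at unadjusted p under 0.05, and 0 by both other tests. The whole tables had 0% called among 2281 alternative 5′ splice sites and 1034 retained introns. The groups did not overlap at 18 of 67 skipped exon events of the RAS list (26.9%) and 14 of 56 of the mTOR list (25%), against 30.8% of all tested skipped exon events, and the median delta PSI was 0.0009 and 0.0005, beside -5.65e-05 over all skipped exon events.

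The largest difference of the RAS list was in SOS1, an exchange factor that activates RAS. Its 45 nt exon had PSI of 0.788 and 0.684 in the RBFOXi libraries and 0.965 and 0.914 in the SCRM libraries, a delta PSI of -0.204 with no overlap (limma adjusted p = 0.529). With the replicate number as a term in the fit the exon met the rule for a call (limma adjusted p = 0.00676). In the pair of this exon with a 265 nt exon, the effective lengths show that the PSI is that of the 265 nt exon. It was 0.661 and 0.769 in the RBFOXi libraries against 0.454 and 0.583 in the SCRM libraries. RASA3, a RAS inhibitor, had a 224 nt exon at 1.00 and 0.902 against 1.00 and 0.705. The groups overlapped there. SCRM replicate 1 had only 6 counts, and SCRM replicate 2 had 9 skipping counts of 83. In the mTOR list, TSC1, the partner of tuberin, had alternative donors with PSI of 0.689 and 0.585 against 1.00 and 0.647. Its pair of 104 nt and 63 nt exons had 0.907 and 0.854 against 0.721 and 0.831, as the PSI of the 63 nt exon. TBC1D7, the third subunit of that complex, had an 81 nt exon at 0.832 and 0.763 against 0.918 and 0.860, with no overlap (delta PSI -0.0913, limma adjusted p = 0.9999). In both TSC1 events the value furthest from the rest was that of SCRM replicate 1.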

How the data were processed

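RNA-seq of U87MG cells transfected with RBFOXi or SCRM (2 libraries each) was analysed from the 5 deposited event tables. The authors aligned paired-end reads uniquely to hg19 with STAR 2.4.2a (version from the submitters' processing notes) and counted inclusion and skipping reads per event with rMATS and UCSC known genes. The deposited values used were these counts, 2 libraries to a cell, not normalized, and the effective lengths. The authors' p-value, FDR and inclusion level columns were not used. Each library held 114415530 to 136097319 counts in the skipped exon table. A read can count in several events, and intervals cover counting error only.

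The log2 odds of inclusion (pseudocount 0.5) were fitted over all tested events of each type with limma 3.58.1 in R 4.3.3 (condition only, variance trend on information), after a test on simulated data. Gene models came from GENCODE 44 lifted to GRCh37. The exons given in every library were the tested regions with SCRM PSI between 0.05 and 0.95 (at most 8 per gene), called regions, the 4 known exons, and the largest non-overlapping difference of each gene. Each region was represented by its best covered event. The NF1 54 nt and 203 nt and MDM2 87 nt exons were added after their values were seen. The genes and lists were chosen with earlier results of these data known. A further gene list is not reported here.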

Additional observations from a re-analysis of the deposited data

How the results depend on the processing

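The count of called events of the 4 genes was 0 in 50 of 51 alternative analyses, which varied the test, pseudocount, filter, centring, PSI definition, delta PSI minimum, replicate block, 1 event per region and each library left out. The PSI definition and delta PSI minimum kept the main p-values, with limma adjusted p of 0.999 or more, so these settings could not add a call. For retained introns, the delta PSI minimum settings had 0 tested events of the 4 genes. Leave-one-out counts ran from 0 to 0 for skipped exons and from 0 to 1 for mutually exclusive exons, the 1 being the MDM2 75 nt and 156 nt pair without SCRM replicate 2. A lone library was assumed there to vary like the other group. Fits of the NF1 retained intron were made only with the loosest filter, and the 4 genes had no alternative 5′ splice site event. The number of exons with basal PSI between 0.05 and 0.95 fell from 7 to 4 with the plain share of counts, which takes no account of form length. The whole-table count of called skipped exons went from 27 to 1 with a pseudocount of 0.1, 40 with 1, 119 with the replicate block, 58 with the quasi-binomial test, 317 with Fisher's exact test, 44 with the loosest filter, and 1 to 69 with a library left out.

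With replicate number added as a block, the smallest adjusted p (limma) was 0.207, at TSC2 exon 25, and that of the MDM2 87 nt exon was 0.22, and 0 events of the 4 genes were called. The SOS1 45 nt exon was called with it. Same-numbered libraries deviated together weakly, with a correlation of 0.0944 over skipped exon events, and the labels do not say what a number shares.

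Delta PSI can move only where a library is left out or PSI is defined as the plain share. Of 112 values of 28 exons and pairs with 1 library left out 22 reversed, at 13 exons and pairs, and of 28 with the plain share 0 reversed. In NF1 the values without 1 library ran from -0.00566 to 0.00398 for exon 48a. In TSC2 the values without 1 library ran from -0.0293 to 0.0124 for the 87 and 111 nt pair, from -0.011 to 0.0106 for the 127 and 144 nt pair, from -0.00556 to 0.011 for the 162 and 153 nt pair and from -0.0076 to 0.0112 for exon 31. In MDM2 the values without 1 library ran from -0.00245 to 0.101 for the 50 and 161 nt pair, from -0.0609 to 0.0709 for the 97 and 161 nt pair, from -0.0238 to 0.0385 for the 161 and 156 nt pair, from -0.0829 to 0.00689 for the 156 and 78 nt pair and from -0.0148 to 0.162 for the 134 nt exon. In MDM4 the values without 1 library ran from -0.062 to 0.0564 for the 75 and 134 nt pair, from -0.0194 to 0.0197 for the 161 and 150 nt pair and from -0.0402 to 0.0118 for the 150 nt exon.

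The MDM4 exon 6 values rest on at most 43 counts a library, and SCRM replicate 1 had at most 27.2% of the counts of SCRM replicate 2 at each NF1, MDM2 and MDM4 exon with SCRM PSI above 0.95.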
